A study of Mus musculus with 12 samples.

Results

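The genes described here are Trp53, which encodes the tumour suppressor p53, and 30 genes known as p53 targets, in microglia sorted from mice after irradiation and transplantation. The members were taken by symbol from the deposited count table, which holds 24328 gene symbols. All 31 were found there, and all 31 passed the filter on low counts that left 12695 genes to test. The control group held 4 untransplanted wild-type Balb/c mice. The syngeneic group held 4 lethally irradiated wild-type Balb/c recipients of syngeneic bone marrow (5000000 cells) and T cells (300000 cells). The allogeneic group held 4 recipients of the same strain, dose and preparation whose bone marrow and T cells were allogeneic. Allogeneic T cells can attack the tissues of the recipient, which is acute GvHD, graft-versus-host disease. Transplanted mice were perfused on day 14, which the labels call the peak of GvHD, and microglia, the resident macrophages of the brain, were sorted by FACS. Irradiation and transplantation were given together, so against untransplanted mice their parts cannot be told apart. The labels used here do not give the donor strain, the radiation dose, or the age and sex of the mice.

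The p53 protein is a transcription factor that is stabilised when DNA is broken, as it is by ionising radiation. It is controlled mainly at the level of the protein: Mdm2 tags it for destruction, and Mdm2 is itself a target, so that the response limits itself. Its targets stop the cell cycle, start cell death, repair DNA and adjust metabolism, and the mixture that is switched on varies between cell types and with the time since the damage.

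Library totals were 32652208 to 46126118 counts, and levels are given as CPM, counts scaled by library size and TMM factors (the per-million scale of edgeR). A gene was called, and is said to have risen or fallen, at an adjusted p under 0.05 in edgeR's quasi-likelihood test over all 12695 genes. Values in parentheses after a gene are the log2 fold change ± SE unless said otherwise. In syngeneic against control, 26.4% of all genes tested were called higher and 25.6% lower (52.1% in all). For allogeneic against control the shares were 28.2% and 29.1% (57.3% in all), and for allogeneic against syngeneic 10.1% and 6.38% (16.5% in all). Scaling by library totals alone moved the median over all genes, on the log2 scale, from -0.03, -0.07 and -0.01 to -0.20, -0.44 and -0.22 in these 3 comparisons. It also changed the calls from 3357 higher and 3253 lower to 2723 and 3968, from 3576 and 3697 to 2453 and 5259, and from 1288 and 810 to 844 and 2108. The 10 microglia markers summed to 47533 to 54262 CPM in control, 45683 to 48557 in syngeneic and 33181 to 34617 in allogeneic libraries.

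Most of the p53 genes were called in each transplanted group against untransplanted mice, 19 of 31 in syngeneic and 22 of 31 in allogeneic microglia, and in both directions. Most of all genes tested were called too, 52.1% in syngeneic and 57.3% in allogeneic against control. In syngeneic microglia 13 of 31 members rose (41.9%, against 26.4% of all genes) and 6 fell (19.4%, against 25.6%). In allogeneic microglia 15 rose (48.4%, against 28.2%) and 7 fell (22.6%, against 29.1%). With library totals 11 members were called higher and 10 lower in allogeneic against control, beside 2453 and 5259 of all 12695 genes. In syngeneic against control 12 and 6 members were then called, beside 2723 and 3968 of all genes. With TMM factors the same 13 genes rose in both, and the same 6 fell in both. Both comparisons use the same 4 control libraries, and the share of all genes called alike in both was not computed. All 4 transplanted libraries lay above all 4 controls for 12 members in syngeneic (24.6% of all genes) and 12 in allogeneic (26.2%), and below them for 7 in syngeneic (25.5%) and 7 in allogeneic (27.7%). The median log2 fold change of the members was 0.38 in syngeneic and 0.84 in allogeneic against control, and 0.22 and 0.47 with library totals. With an offset fitted to GC content and length these medians were 0.40 and 0.38, so allogeneic was not the higher. Between the transplanted groups 1 member was higher and 1 lower in allogeneic libraries, and 29 were not called. Summed over the 31 members, the groups overlapped, at 1129 to 1233 CPM in control, 1198 to 1272 in syngeneic and 1199 to 1293 in allogeneic libraries.

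**Figure D1:**
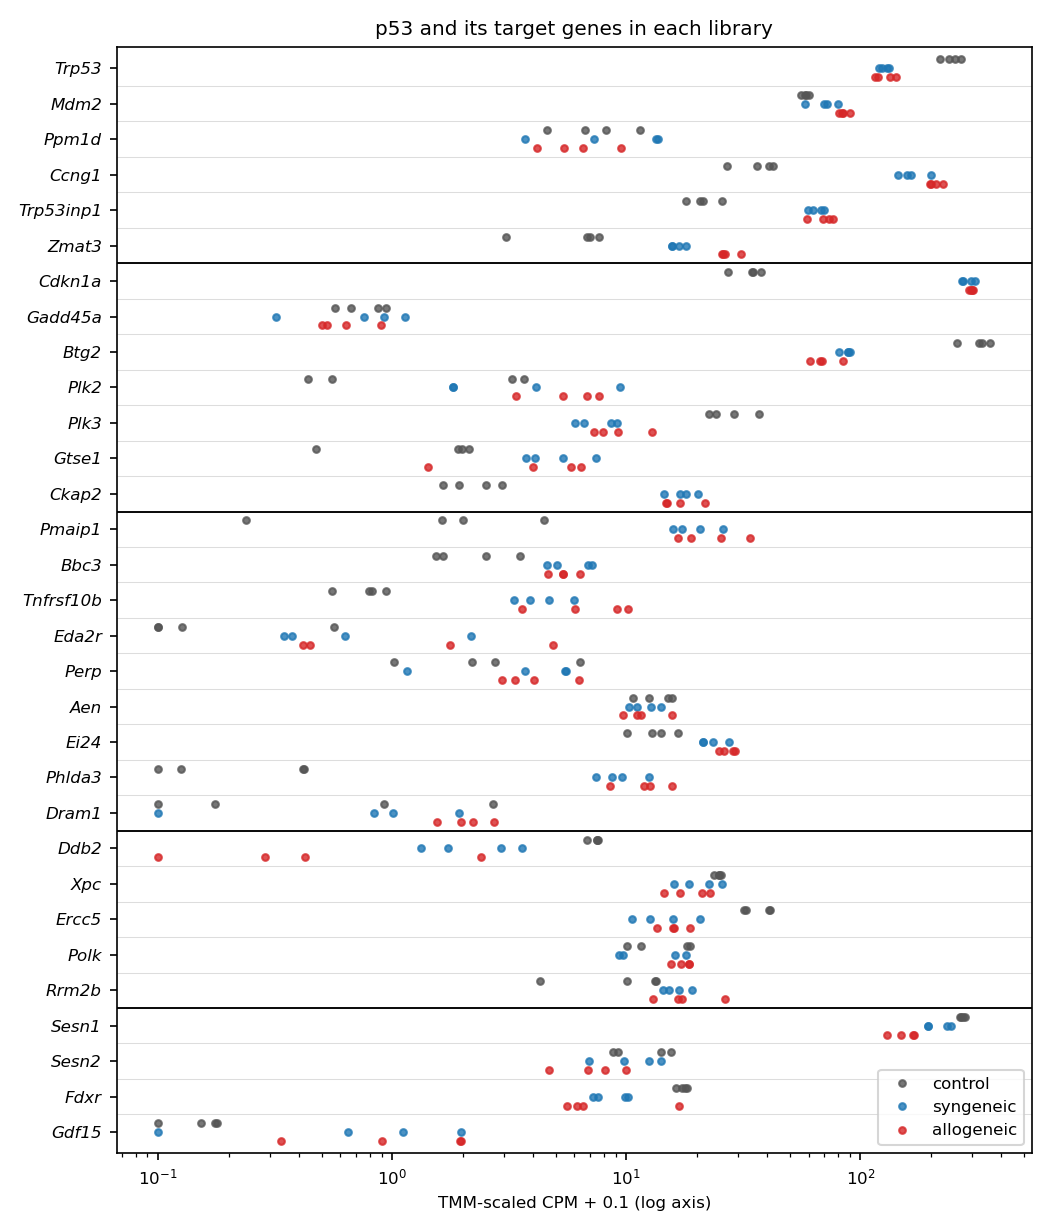
Level of each member in each of the 12 libraries (x, TMM-scaled CPM plus 0.1 on a log axis; 4 points per group, 1 row per gene, black lines separate roles from p53 and its feedback at the top through cell cycle, cell death and survival, and DNA repair to metabolism and secreted at the bottom). Cdkn1a, Ccng1, Ckap2 and Phlda3 show control points apart from both transplanted groups on the low side, and Trp53, Btg2, Plk3 and Ercc5 on the high side.

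The order of the members changed with transplantation. Levels of different genes were compared per kilobase of the longest annotated transcript. In control microglia Btg2 was the most abundant member at 116 CPM per kilobase, followed by Trp53 at 74.9 and Sesn1 at 71.3, and Cdkn1a was the fifth at 16.02. In syngeneic microglia Cdkn1a led at 138 CPM per kilobase and Sesn1 followed at 56.8. In allogeneic microglia Cdkn1a led at 143 CPM per kilobase and Ccng1 followed at 59.4.

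Regulatory DNA of the members was read from RefSeq promoter windows of GRCm38.p6, which run from 250 bases before to 50 bases after an annotated transcription start. A window was found for 23 of the 31 members, and none for Trp53inp1, Zmat3, Pmaip1, Ddb2, Xpc, Rrm2b, Tnfrsf10b and Perp. The only motif searched was the p53 decamer, the 10-base unit that occurs in pairs in p53 response elements and reads the same on both strands. A perfect decamer lay in 13 of 31 windows of members (41.9%) and in 8.36% of all 32851 windows. The members are known targets, so this share follows from how they were listed. A pair of perfect decamers, no more than 13 bases apart, lay in 0.0731% of all windows. Among the members it was found in 1 window, that of Cdkn1a, at a start 2790 bases upstream of the other annotated Cdkn1a start. Of the 12 members with a decamer 6 rose, 2 fell and 4 were not called in either comparison with control. Of the 11 with a window and no decamer 3 rose and 4 fell in syngeneic, and 4 rose and 4 fell in allogeneic. Among all genes 26.4% rose and 25.6% fell in syngeneic, and 28.2% and 29.1% in allogeneic against control. A link between decamer and call was not tested. The stretches below show the pair of Cdkn1a and single decamers of 5 other members, chosen after their values were seen. Decamers also lay in the windows of Sesn1, which fell, of Gtse1, which rose, and of the uncalled Aen, Polk, Gadd45a and Ppm1d. Decamers are in capitals, and each stretch runs 5′ to 3′ on the gene's strand.
Cdkn1a, chr17:29090876-29090967, plus strand: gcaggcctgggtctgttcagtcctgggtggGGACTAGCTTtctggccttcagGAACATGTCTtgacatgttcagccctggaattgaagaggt
Ccng1, chr11:40755432-40755501, minus strand: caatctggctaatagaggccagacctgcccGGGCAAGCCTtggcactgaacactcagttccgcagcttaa
Mdm2, chr10:117710905-117710974, minus strand: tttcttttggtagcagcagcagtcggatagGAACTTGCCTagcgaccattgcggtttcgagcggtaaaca
Ei24, chr9:36797335-36797374, minus strand: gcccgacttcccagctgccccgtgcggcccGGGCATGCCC
Ckap2, chr8:22185983-22186052, minus strand: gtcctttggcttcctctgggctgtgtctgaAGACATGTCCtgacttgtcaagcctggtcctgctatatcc
Trp53, chr11:69580254-69580323, plus strand: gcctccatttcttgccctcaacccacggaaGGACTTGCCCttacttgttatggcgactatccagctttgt
The decamer of Cdkn1a begins 73 bases before its start, that of Ccng1 185, of Mdm2 186, of Ei24 10, of Ckap2 203 and of Trp53 75. A match describes these letters and does not show that p53 binds there.

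Trp53 itself fell. Its level was 238, 219, 269.6 and 254 CPM in the control libraries, 119, 129, 123 and 133 in the syngeneic libraries, and 119, 115, 142 and 133 in the allogeneic libraries. Every transplanted library lay below every control library, and the transplanted groups overlapped. The log2 fold change was -0.96 ± 0.09 in syngeneic (edgeR adjusted p = 4.8e-08) and -0.95 ± 0.09 in allogeneic against control (edgeR adjusted p = 3.7e-08). Its call held in each alternative run and with each library left out. Over these its log2 fold change lay between -1.13 and -0.44 in syngeneic, and between -1.32 and -0.40 in allogeneic against control. This is the level of the RNA; the p53 protein was not measured.

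Of the 5 other members that act on p53, 4 rose in both groups against control, by very different amounts. The share of all genes that rose was 26.4% in syngeneic and 28.2% in allogeneic. Mdm2, the ubiquitin ligase that destroys p53, stood at 58.2, 58.1, 60.4 and 55.7 CPM in control, 71.6, 57.6, 70.1 and 80.0 in syngeneic, and 84.3, 90.5, 80.8 and 83.6 in allogeneic libraries. Syngeneic 2 lay within the control range, and all 4 allogeneic libraries lay above both other groups. Mdm2 rose by 0.26 ± 0.10 in syngeneic (edgeR adjusted p = 0.040) and 0.54 ± 0.10 in allogeneic against control (edgeR adjusted p = 2.0e-04). The syngeneic call was lost without any one of control 1 to 4 or of syngeneic 1, 3 and 4 (edgeR adjusted p 0.051 to 0.137), and with library totals, no filter, only the compared groups or the offset for GC content and length. The allogeneic call was lost with library totals (edgeR adjusted p = 0.161).

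Ccng1 encodes cyclin G1, which draws a phosphatase to Mdm2. It stood at 36.1, 40.7, 42.2 and 26.9 CPM in control, 199.8, 144, 158 and 165 in syngeneic, and 226, 209.7, 199 and 200.2 in allogeneic libraries. The lowest transplanted library was over 3 times the highest control library. Its rise was 4.57-fold in syngeneic and 5.72-fold in allogeneic against control (edgeR adjusted p = 1.8e-10 and 1.1e-11).

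Trp53inp1, a stress protein that promotes p53 activity and autophagy, rose 3.06-fold and 3.27-fold in syngeneic and allogeneic against control. Its control libraries held 17.8 to 25.4 CPM, and all transplanted libraries held 59.1 to 76.0. Zmat3, a zinc finger protein that binds RNA and regulates splicing, stood at 2.95, 6.88, 6.66 and 7.53 CPM in control, 16.6, 15.6, 15.6 and 18.0 in syngeneic, and 30.9, 25.8, 25.5 and 26.2 in allogeneic libraries. Its 3 groups did not overlap. Zmat3 rose by 1.45 ± 0.24 and 2.17 ± 0.24 against control. Ppm1d, the phosphatase Wip1 that turns off the damage response, was called in no comparison, with 3.59 to 13.5 CPM over all 12 libraries.

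**Figure D2:**
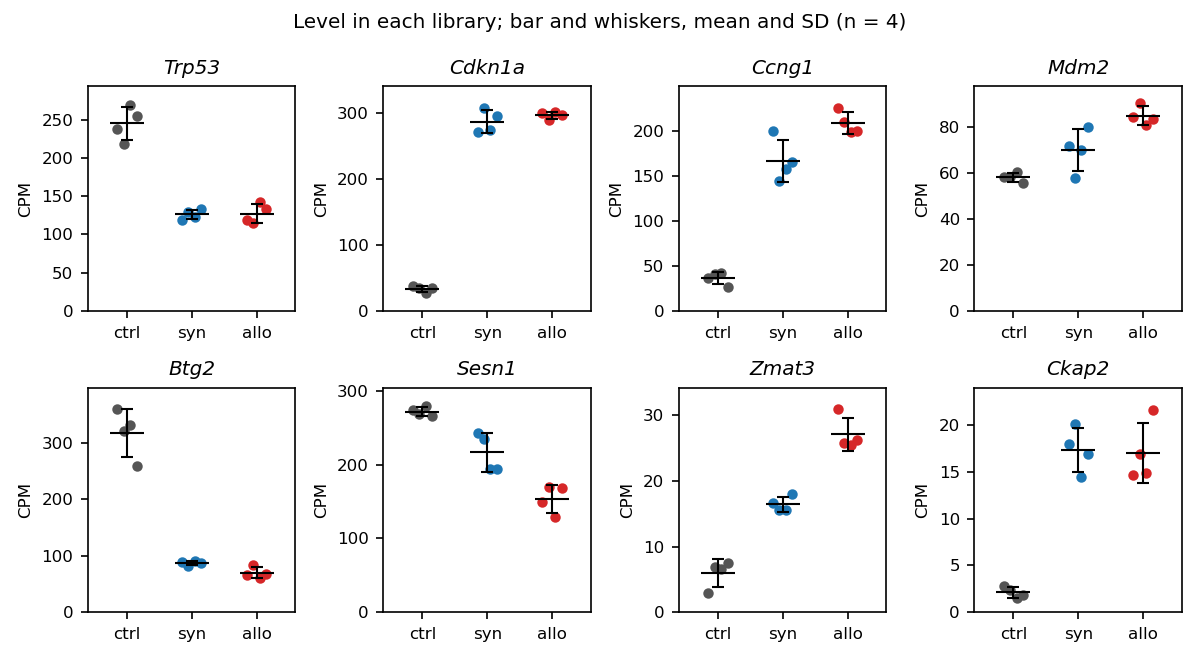
Level of 8 members in each library (y, TMM-scaled CPM on linear axes from 0; points are libraries, bars and whiskers the mean and SD of 4). Cdkn1a lies at 27.1 to 37.4 CPM in control and 271 to 308 in transplanted libraries, while Trp53 and Btg2 fall in both transplanted groups and Zmat3 and Sesn1 separate all 3 groups.

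Of the 7 cell cycle members 3 rose and 2 fell in each comparison with control, which is near the background of 26.4% and 25.6% of all genes in syngeneic and 28.2% and 29.1% in allogeneic. Cdkn1a encodes p21, the inhibitor of cyclin-dependent kinases through which p53 halts division. It stood at 37.4, 34.2, 27.1 and 34.5 CPM in control, 271, 308, 274 and 295 in syngeneic, and 299.9, 289.7, 302 and 297 in allogeneic libraries. The groups of transplanted mice overlapped, and each of their libraries was over 7 times the highest control library. The rise was 8.62-fold in syngeneic and 8.92-fold in allogeneic against control (edgeR adjusted p = 1.4e-13 and 1.3e-14). Btg2, which slows cell cycle entry and is also an immediate early gene, stood at 359, 321, 331 and 259 CPM in control, 88.3, 81.1, 90.4 and 87.9 in syngeneic, and 67.0, 84.2, 60.9 and 68.4 in allogeneic libraries. Both transplanted groups lay far below control. Btg2 fell by 1.87 ± 0.11 in syngeneic and fell by 2.18 ± 0.11 in allogeneic against control on the log2 scale.

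The polo-like kinase Plk3, a stress kinase, fell from 22.4 to 36.9 CPM in control libraries to 5.91 to 9.05 in syngeneic and 7.18 to 12.7 in allogeneic libraries. Its log2 fold changes were -1.91 ± 0.24 and -1.60 ± 0.24, and with the offset for GC content and length they were -1.20 and -0.83, still called. Plk2, a related kinase, was not called against control (1.15 ± 0.69 in syngeneic, 1.60 ± 0.70 in allogeneic). In allogeneic it was called higher without control 1, control 3 or allogeneic 4 (edgeR adjusted p 0.0296 to 0.0497) and by DESeq2. Gadd45a, a damage sensor that also halts the cycle, held 0.219 to 1.03 CPM in all libraries and was not called. Its 95% interval in syngeneic against control ran from -1.94 to 2.04 on the log2 scale.

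Gtse1 and Ckap2 are targets that are also made in dividing cells. Ckap2, a spindle protein, stood at 2.85, 2.42, 1.55 and 1.84 CPM in control, 17.9, 20.1, 14.4 and 16.9 in syngeneic, and 14.7, 16.9, 14.8 and 21.6 in allogeneic libraries. It rose 8.01-fold and 7.87-fold. Gtse1, a microtubule protein that holds p53 in check in G2, rose 3.32-fold in syngeneic (edgeR adjusted p = 0.014) and 2.81-fold in allogeneic (edgeR adjusted p = 0.027) against control. In allogeneic 3 it stood at 1.32 CPM, within the control range of 0.372 to 2.02. The allogeneic call was lost without control 1, allogeneic 2 or allogeneic 4 (edgeR adjusted p 0.0632 to 0.0835), with library totals and with only the compared groups.

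Of 9 members that act in cell death and survival, 5 rose in syngeneic and 6 in allogeneic against control, and 0 fell in either. Of all genes 26.4% and 28.2% rose in these comparisons, and 25.6% and 29.1% fell. Phlda3, which blocks the survival kinase AKT, held 0 to 0.319 CPM in control, 7.29, 9.48, 12.4 and 8.57 in syngeneic, and 12.5, 11.8, 8.38 and 15.5 in allogeneic libraries. Counts in the control libraries were 1, 12, 16 and 0, so the fold, 5.78 ± 0.61 and 6.14 ± 0.61 on the log2 scale, rests on few control reads. Every transplanted library lay over 20 times above the highest control library. Pmaip1 encodes Noxa, a BH3-only protein that frees the mitochondrial death pathway. It stood at 1.54, 4.35, 0.137 and 1.91 CPM in control, 17.3, 15.8, 25.7 and 20.6 in syngeneic, and 18.9, 33.5, 16.5 and 25.3 in allogeneic libraries. The groups of transplanted mice overlapped and lay above all controls. Pmaip1 rose by 3.34 ± 0.61 and 3.58 ± 0.62, and without control 2 by 4.08 and 4.31.

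Bbc3 encodes Puma, a BH3-only protein like Noxa. It stood at 2.40, 3.40, 1.43 and 1.55 CPM in control, 4.50, 7.001, 6.76 and 4.98 in syngeneic, and 6.24, 5.29, 4.52 and 5.24 in allogeneic libraries, with no transplanted library as low as a control. Its rise was 2.65-fold and 2.42-fold; on the log2 scale the allogeneic value was 1.28, and 1.89 with the offset for GC content and length. Tnfrsf10b, the TRAIL death receptor, held 0.451 to 0.843 CPM in control, 3.204 to 5.88 in syngeneic and 3.49 to 10.1 in allogeneic libraries. It rose 6.39-fold and 10.5-fold. Ei24, a protein of the endoplasmic reticulum with a part in autophagy, stood at 9.95 to 16.5 CPM in control, 21.1 to 27.3 in syngeneic and 24.7 to 29.1 in allogeneic libraries, and rose 1.75-fold and 2.03-fold. Eda2r, a receptor of the TNF family, reached 4.77 CPM in allogeneic 4 and stood at 0 to 0.465 in control libraries. It was called higher in allogeneic against control (3.83 ± 1.51, edgeR adjusted p = 0.037). The call was lost without allogeneic 3, allogeneic 4, control 1, control 2 or control 3 (edgeR adjusted p 0.0536 to 0.179). It was also lost with library totals and with the offset for GC content and length (edgeR adjusted p = 0.0585 and 0.0575). Without allogeneic 4 the log2 fold change was 2.63, and without control 4 it was 7.29.

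The other death genes of the list were not called. Aen, an exonuclease that cuts DNA in dying cells, held 9.61 to 15.6 CPM over all libraries, and its intervals against control lay between -0.62 and 0.29 on the log2 scale in both groups. With library totals Aen was called lower in allogeneic against control (-0.53). Perp, a membrane protein of desmosomes and death, held 0.921 to 6.25 CPM and Dram1, a lysosomal protein of autophagy, held 0 to 2.62. For Dram1 the interval in syngeneic against control ran from -2.67 to 2.63 on the log2 scale.

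**Figure D3:**
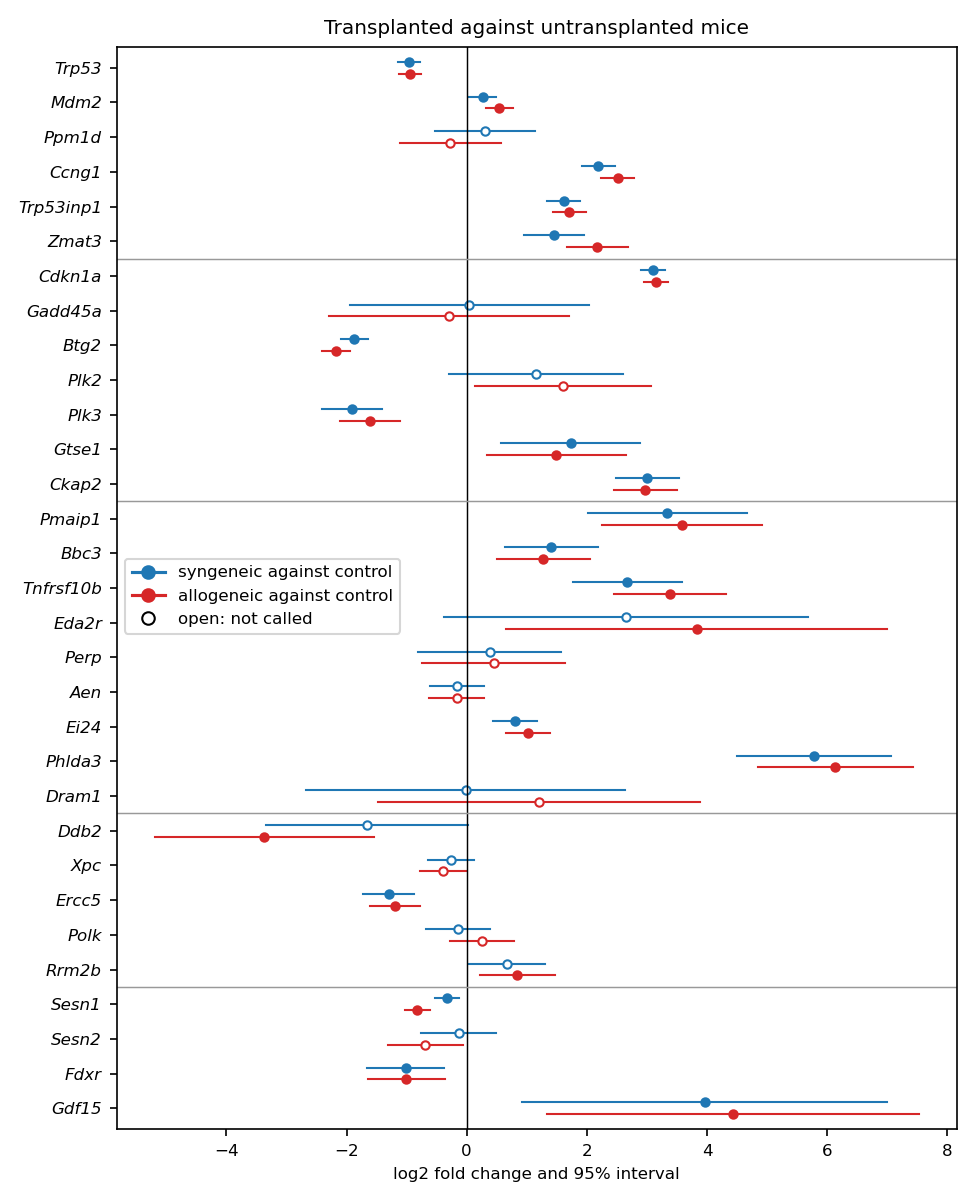
Log2 fold change of each member (x; point, with its 95% interval as a line) in syngeneic (blue) and allogeneic (red) against the same control libraries; filled points were called and open points not, and grey lines separate the roles. The largest rise is that of Phlda3 (5.78 and 6.14), and the points furthest below 0 in both comparisons are those of Btg2, Plk3, Ddb2 and Ercc5.

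Of 5 members that act in DNA repair and nucleotide supply, 0 rose and 1 fell in syngeneic against control (26.4% and 25.6% of all genes), and 1 rose and 2 fell in allogeneic (28.2% and 29.1%), which is near the background for so few genes. Ercc5, the XPG nuclease of nucleotide excision repair, stood at 32.5, 31.9, 41.1 and 40.6 CPM in control, 15.7, 20.6, 10.5 and 12.5 in syngeneic, and 13.5, 15.8, 18.7 and 15.8 in allogeneic libraries. It fell by 1.30 ± 0.20 and fell by 1.20 ± 0.20 on the log2 scale. Ddb2, which finds ultraviolet lesions in chromatin, stood at 7.41, 7.43, 7.41 and 6.67 CPM in control, 1.63, 1.23, 2.82 and 3.49 in syngeneic, and 2.30, 0.187, 0 and 0.324 in allogeneic libraries. All transplanted libraries lay below all controls. The fall was called in allogeneic (-3.37 ± 0.87, edgeR adjusted p = 0.0028) and not in syngeneic (-1.66 ± 0.80, edgeR adjusted p = 0.093), where it was called without allogeneic 1 or 3 or with only the compared groups in the fit. Without allogeneic 1 the allogeneic value was -5.39. Exons of Ddb2 and of Acp2 on the opposite strand overlap, and the labels used here do not say whether counting used strand.

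Rrm2b, the p53-inducible subunit of ribonucleotide reductase that supplies nucleotides for repair, rose by 0.84 ± 0.30 in allogeneic against control (edgeR adjusted p = 0.022), from 4.16, 9.93, 13.2 and 13.3 CPM to 26.3, 12.9, 17.2 and 16.5. The groups overlapped, and the call was lost without control 1 or allogeneic 1 (edgeR adjusted p = 0.0511 and 0.101), with library totals and with the offset for GC content and length. In syngeneic libraries Rrm2b held 14.2 to 18.9 CPM, above all controls, and was not called (0.67 ± 0.30, edgeR adjusted p = 0.068). Xpc, a lesion detector of nucleotide excision repair, and Polk, a polymerase that copies past lesions, were not called. Xpc held 23.7 to 25.3 CPM in control, 15.9 to 25.6 in syngeneic and 14.4 to 22.7 in allogeneic libraries, so all allogeneic libraries lay below all controls. In allogeneic against control it had -0.40 ± 0.18 (edgeR adjusted p = 0.073) and was called lower without allogeneic 1 (edgeR adjusted p = 0.038) and with library totals (-0.77). Polk held 9.22 to 18.5 over all libraries.

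Among genes of metabolism and secreted factors, Sesn1 fell and Gdf15 rose. Sesn1 encodes sestrin 1, which restrains the growth kinase mTORC1 and protects against oxidants. It stood at 273, 268, 279.5 and 266 CPM in control, 243, 235, 194 and 194 in syngeneic, and 149, 169, 129 and 168 in allogeneic libraries, and the 3 groups did not overlap. Its log2 fold change was -0.33 ± 0.09 in syngeneic (edgeR adjusted p = 0.0072) and -0.82 ± 0.10 in allogeneic against control (edgeR adjusted p = 6.9e-07). With the offset for GC content and length the syngeneic value was -0.10 and was not called (edgeR adjusted p = 0.431). The related Sesn2 was not called; its log2 fold changes were -0.13 ± 0.29 in syngeneic and -0.69 ± 0.30 in allogeneic (edgeR adjusted p = 0.056) against control. In allogeneic it was called lower without control 2, control 3, syngeneic 4 or allogeneic 2 (edgeR adjusted p 0.0295 to 0.0432) and with library totals (-1.06).

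Fdxr, the mitochondrial ferredoxin reductase, stood at 17.7, 16.2, 17.3 and 18.1 CPM in control, 7.11, 9.76, 10.05 and 7.43 in syngeneic, and 5.48, 6.41, 6.06 and 16.6 in allogeneic libraries. Allogeneic 4 lay within the control range, and the other transplanted libraries lay below it. Fdxr fell by 1.01 ± 0.31 in syngeneic and fell by 1.003 ± 0.31 in allogeneic against control on the log2 scale. With the offset for GC content and length these were -0.45 and -0.40 and were not called (edgeR adjusted p = 0.247 and 0.299). Gdf15, a secreted stress cytokine, had 3, 2, 4 and 0 counts in control, 0, 47, 20 and 74 in syngeneic, and 59, 69, 28 and 8 in allogeneic libraries. It rose in both (3.96 ± 1.45 and 4.43 ± 1.47, edgeR adjusted p = 0.028 and 0.016) from a control level of 0.0515 ± 0.0361 CPM (SD, n = 4). The syngeneic call was lost without any one of the controls or without syngeneic 4 (edgeR adjusted p 0.051 to 0.0898), and the log2 fold change was 3.25 without syngeneic 4.

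Few members were called between the transplanted groups. Allogeneic and syngeneic recipients, all irradiated, were compared to ask how microglia differ in GvHD. The median log2 fold change of the members was 0.10, where that of all genes was -0.01, and turned to -0.10 with library totals, against -0.22 for all genes. In allogeneic libraries 1 member (3.23%) was called higher, beside 10.1% of all genes, and 1 lower, beside 6.38%. All 4 allogeneic libraries lay above all 4 syngeneic libraries for 2 members (12.6% of all genes), Mdm2 and Zmat3, and below them for 1 (8.1%), Sesn1. Trp53 differed by 0.01 ± 0.09, with a 95% interval of -0.17 to 0.20 on the log2 scale. Cdkn1a differed by 0.05 ± 0.09, with an interval of -0.13 to 0.23. For 17 of the 31 members the interval lay within 1 log2 unit of 0. The widest were those of Eda2r, Dram1 and Gdf15, all under 5 CPM in every library. For Dram1 it ran from -1.46 to 3.90.

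Sesn1 was lower in allogeneic than in syngeneic libraries, at 154 ± 18.9 against 216 ± 25.9 CPM (SD, n = 4 each). The highest allogeneic library, at 169 CPM, lay below the lowest syngeneic library, at 194. The log2 fold change was -0.49 ± 0.09 (edgeR adjusted p = 0.0010), and the call held in each alternative run. Zmat3 was higher, at 27.1 ± 2.53 against 16.4 ± 1.13 CPM (0.72 ± 0.23, edgeR adjusted p = 0.038), also without overlap. Its call was lost without any one of the 8 libraries compared (edgeR adjusted p 0.0613 to 0.101) and with library totals (edgeR adjusted p = 0.132).

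A few uncalled members lay near the threshold. Mdm2 stood above every syngeneic library in all 4 allogeneic libraries (0.28 ± 0.10, edgeR adjusted p = 0.074) and was called without syngeneic 4 or by DESeq2. Ccng1 (0.32 ± 0.12, edgeR adjusted p = 0.084) was called without syngeneic 1 or control 4, with only the compared groups or by DESeq2. Btg2 (-0.31 ± 0.11, edgeR adjusted p = 0.056) was called lower in several alternatives, such as with library totals (-0.51). Ddb2 (-1.71 ± 0.82, edgeR adjusted p = 0.183) was called without allogeneic 1, where its value was -3.73.

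**Figure D4:**
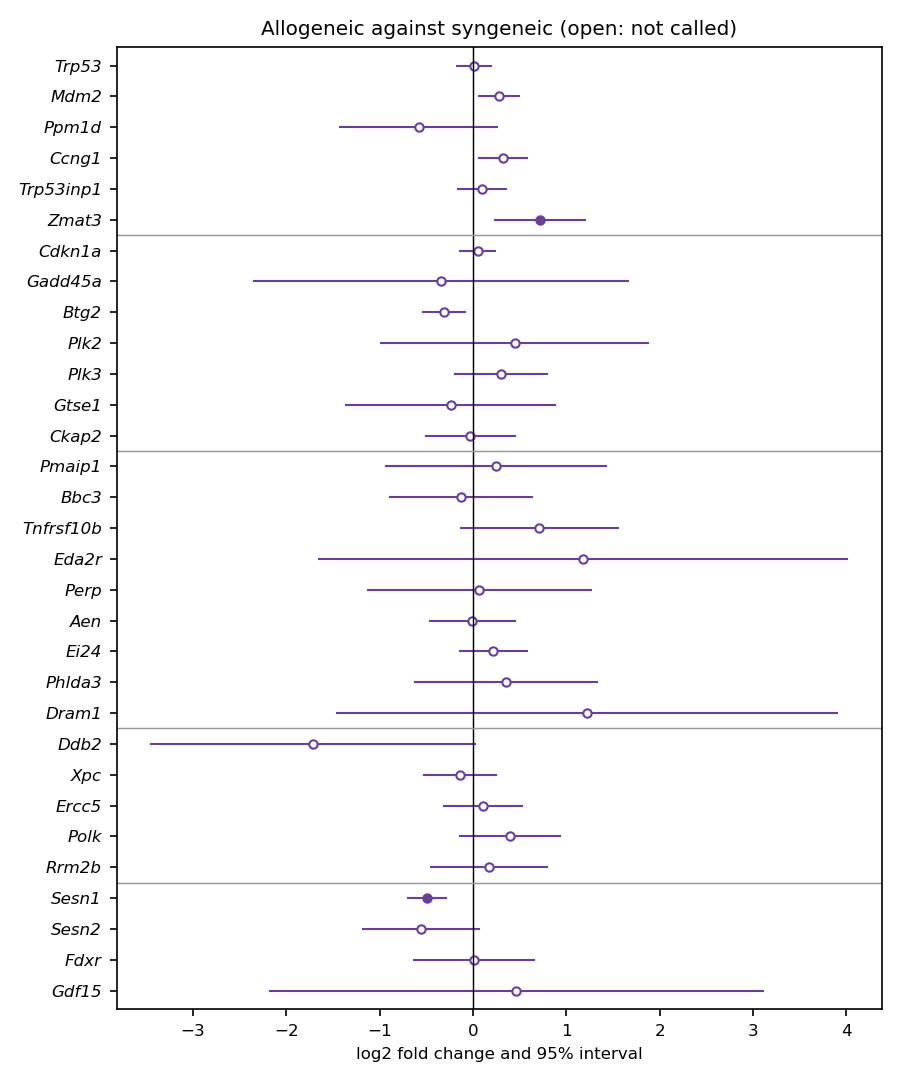
Log2 fold change of each member in allogeneic against syngeneic libraries (x; point, with its 95% interval as a line; filled, called). Sesn1 at -0.49 and Zmat3 at 0.72 are the filled points, and the intervals of Trp53 and Cdkn1a are the narrowest around 0.

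Other genes of the pathway were read from lists. Of 24 genes that control p53 (kinases, ligases, cofactors and relatives), 22 were tested; 6 rose and 10 fell in syngeneic, and 4 rose and 10 fell in allogeneic against control. As shares these were 27.3% and 45.5% in syngeneic (26.4% and 25.6% of all genes), and 18.2% and 45.5% in allogeneic (28.2% and 29.1%). Their medians were -0.05 and -0.34. Mdm4, the partner of Mdm2 that holds p53 inactive, fell in both (-1.66 ± 0.12 and -1.47 ± 0.12). Also among the 3 with the smallest p, the checkpoint kinase gene Chek2 (-1.02 ± 0.17) and the p53 cofactor and death adaptor Daxx (-1.55 ± 0.26) fell in syngeneic. The acetyltransferase Kat5 (-1.40 ± 0.17) and the nuclear matrix protein Banp (-1.70 ± 0.27) fell in allogeneic. Between allogeneic and syngeneic libraries Kat5 was lower (-0.90 ± 0.17), and Daxx (0.83 ± 0.26) and Chek2 (0.53 ± 0.17) were higher. The p53 relatives Trp63 and Trp73 had too few counts to be tested.

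Of 35 further p53 targets, 31 were tested. In syngeneic against control 13 rose and 5 fell, in allogeneic against control 12 rose and 6 fell, and their medians were 0.33 and 0.34. As shares these were 41.9% and 16.1% in syngeneic (26.4% and 25.6% of all genes), and 38.7% and 19.4% in allogeneic (28.2% and 29.1%). Bax, which opens the outer mitochondrial membrane in apoptosis, rose 2.16 ± 0.10 and 2.56 ± 0.10 on the log2 scale. Rps27l, a ribosomal protein paralogue, rose by 1.77 ± 0.09 and 2.45 ± 0.09, and Dcxr, a carbonyl reductase, by 1.33 ± 0.10 and 1.56 ± 0.10. In allogeneic against syngeneic libraries 7 of the 31 were higher (22.6%, against 10.1% of all genes) and 3 lower (9.68%, against 6.38%). Rps27l (0.68 ± 0.08) and Pml (1.02 ± 0.20), which organises nuclear bodies, were higher, and Prkab1 (-0.69 ± 0.11), a subunit of the energy sensor AMPK, was lower. Rps27l is near-identical in part to Rps27, and the labels used here do not say how shared reads were counted.

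The 26 division genes listed are ones that p53 is known to lower, by way of p21 and the DREAM repressor complex. In these data 25 rose and 0 fell in syngeneic against control, and 23 rose and 0 fell in allogeneic against control (26.4% and 28.2% of all genes rose). Their medians were 3.201 and 3.176. Top2a, the topoisomerase of dividing cells, rose 4.36 ± 0.17 and 4.01 ± 0.17, Rrm2, the S phase subunit of ribonucleotide reductase, 3.97 ± 0.21 and 3.96 ± 0.21, and the mitotic kinase gene Cdk1 3.63 ± 0.20 and 3.44 ± 0.20. The sum of the list was 84.6 to 99.3 CPM in control, 789 to 976 in syngeneic and 699 to 821 in allogeneic libraries. Cdkn1a and genes of division were thus both higher in the same libraries, and whether in the same cells cannot be told from bulk RNA. In allogeneic against syngeneic libraries 0 rose (10.1% of all genes) and 1 fell (3.85%, against 6.38%). The latter was Foxm1 (-1.47 ± 0.45), a transcription factor of mitosis.

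**Figure D5:**
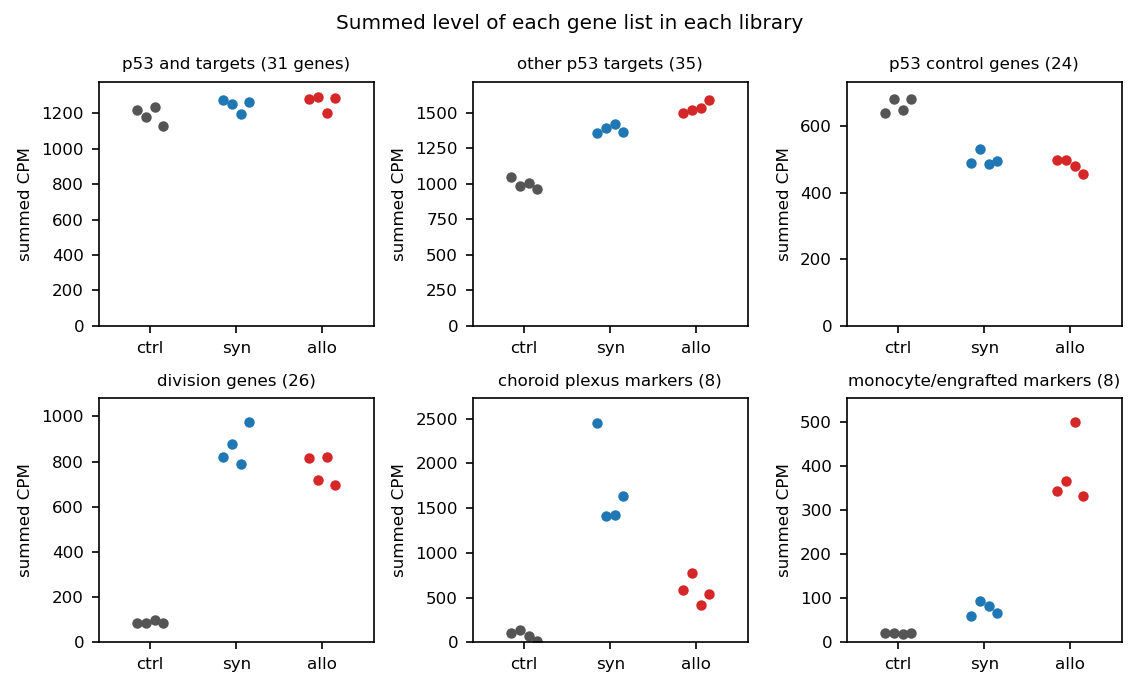
Summed level of 6 gene lists in each library (y, summed TMM-scaled CPM on linear axes from 0; 4 points per group). The sum of the p53 members stays near its control level, while division genes, choroid plexus markers and monocyte and engrafted macrophage markers are higher in transplanted libraries. The other p53 targets also sum higher (965 to 1048 CPM in control, 1357 to 1421 in syngeneic, 1499 to 1591 in allogeneic). The p53 control genes sum lower (639 to 682, 486 to 531 and 455 to 500 CPM).

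Summed markers of some other cells moved with the groups, and those of others overlapped. The 8 choroid plexus markers summed to 21.2 to 143 CPM in control, 1413 to 2453 in syngeneic and 414 to 779 in allogeneic libraries. The 8 monocyte and engrafted macrophage markers summed to 18.8 to 22.3 CPM in control, 59.5 to 94.8 in syngeneic and 332 to 499 in allogeneic libraries, and the part of choroid plexus and of these cells in the changes of the members was not tested. Astrocyte markers summed to 0.843 to 5.95 CPM in control and 13.4 to 28.5 in transplanted libraries, and neuron markers to 1.57 to 2.13 and 3.81 to 12.4. Single markers went the other way against control. In syngeneic these were 1 astrocyte (-1.84), 1 neuron (-0.88) and 1 monocyte-list marker (-0.24), all uncalled. In allogeneic they were 1 neuron marker (-0.49, uncalled) and 1 monocyte-list marker (-1.25, called). Sums of oligodendrocyte, endothelial, B cell and erythroid markers overlapped between groups. Neutrophil markers overlapped too, at up to 22.6 CPM in control, 5.26 in syngeneic and 6.74 in allogeneic libraries. Single markers of these lists were still called. Of 3 oligodendrocyte markers tested, 2 were higher and 1 lower in each comparison with control. Of 4 endothelial markers, 1 was higher and 2 lower in syngeneic, and 1 higher and 1 lower in allogeneic against control. The 1 B cell marker tested was lower in syngeneic, and 1 of 3 neutrophil markers lower in allogeneic against control. The 7 T and NK cell markers found summed to at most 2.54 CPM in any library, with Cd3e, Cd3g and Gzmb at 0 in all control and syngeneic libraries. Ncr1, another NK cell marker of the list, had no counts in any library. Klrb1c, a receptor of NK cells, was the only one of the 7 with enough counts to test. It had 31, 54, 62 and 29 counts in the allogeneic libraries, 2 in syngeneic 1 and 0 in the other 7 libraries, and was called higher in allogeneic against control and against syngeneic (edgeR adjusted p = 8.6e-04 and 0.011). Fewer cells of a type and less RNA per cell cannot be told apart in bulk samples.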

How the data were processed

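RNA-seq of 12 libraries was read from 1 table of raw counts per gene symbol that the authors deposited. The submitters' processing notes name Trimmomatic 0.36, a read trimmer, STAR 2.5.2b, an aligner, and the build mm9. Counting tool, annotation and strand setting were not given in the sources used here. Nothing says whether libraries were made in batches.

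Levels (CPM) and fold changes (log2) came from edgeR 4.0.16 under R 4.3.3, with TMM factors, filterByExpr (minimum count 10), a robust quasi-likelihood fit to the 3 group means over all 12 libraries, and Benjamini-Hochberg adjustment over 12695 genes. The SE is the absolute log2 fold change divided by the square root of the quasi-F statistic, and 95% intervals use the fit's degrees of freedom. The labels call the replicates mice. Within-group Spearman correlations of libraries were 0.975 to 0.984. The method was tested on simulated counts. Members and lists were chosen with earlier results of these data known. Every member is named, and of each further list, per comparison, up to 3 called genes with the smallest p. Alternatives were RLE factors, library totals, 2 other filters, DESeq2 1.42.0, only the compared groups, each library left out, the replicate block, and an offset fitted to GC content and length (GENCODE M21, loess span 0.3). Exons of 25 members overlap no exon of another gene in GENCODE M21; Cdkn1a, Ddb2, Ei24, Gadd45a, Plk3 and Rrm2b overlap genes on the opposite strand. Precision is limited by 4 mice per group.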

Additional observations from a re-analysis of the deposited data

Results flagged for a closer look

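In 7 of 93 sets of 4 libraries, 1 library stood further from the others than Dixon's 95% limit for its group; chance does this in about 1 in 20 sets. Allogeneic 1 was the highest of its group for Zmat3 at 30.9 CPM, with the others at 25.5 to 26.2 (gap over range 0.877), and for Ddb2 at 2.30 CPM, with the others at 0 to 0.324 (0.859). Allogeneic 4 was the highest for Fdxr at 16.6 CPM, with the others at 5.48 to 6.41 (0.917). Control 1 was the lowest for Gtse1 at 0.372 CPM, with the others at 1.81 to 2.02 (0.874). Control 4 was the lowest for Ddb2 at 6.67 CPM, with the others at 7.41 to 7.43 (0.965), and the highest for Eda2r at 0.465 CPM, with the others at 0 to 0.0265 (0.943). Syngeneic 2 was the highest for Eda2r at 2.07 CPM, with the others at 0.245 to 0.531 (0.843).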

How the results depend on the processing

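Each member's log2 fold change was recomputed under 9 other settings and with each of the 12 libraries left out, 1945 values in all. Of these, 1855 kept the side of the threshold, 54 lost a call, 36 gained one, 0 called values reversed, and 77 uncalled values changed sign while staying uncalled. Of 19 calls in syngeneic against control 15 held throughout (not Mdm2, Sesn1, Gdf15 and Fdxr), of 22 in allogeneic against control 17 (not Mdm2, Gtse1, Rrm2b, Fdxr and Eda2r), and of 2 in allogeneic against syngeneic 1 (Sesn1). With each library left out, members called higher numbered 11 to 13 in syngeneic against control, 13 to 15 in allogeneic against control and 0 to 2 in allogeneic against syngeneic; members called lower numbered 6 to 7, 7 to 8 and 1 to 2. In allogeneic against syngeneic the number higher was 0 with library totals, 3 with DESeq2, 2 with only the compared groups and 0 with the replicate block, and the number lower was 2 with library totals, DESeq2, only the compared groups, the GC and length offset and the replicate block with that offset; the causes were not tested. The replicate numbers do not pair the mice: correlations of same-numbered libraries' deviations ran from -0.015 to 0.032, and 2 of 12 libraries correlated best with their own number. With the replicate block Eda2r (4.17) and Plk2 (1.92) gained a call against control, in syngeneic and allogeneic respectively, Mdm2 (edgeR adjusted p = 0.0643) and Gdf15 (0.0777) lost theirs in syngeneic against control, and Zmat3 (0.0568) in allogeneic against syngeneic; the block alone changed no other call and moved Ddb2 to -4.14 and Eda2r to 4.84 in allogeneic against control. With few counts, as for Gdf15, Eda2r, Dram1 and Gadd45a, depth limits what can be seen; the 0 of Ddb2 in allogeneic 3 allows up to 0.0858 CPM (3 counts, for counting error only).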
